A study of Mus musculus with 6 samples.

Results

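The respiratory chain and ATP synthase were measured in megakaryocyte progenitors, precursors in the bone marrow of the cells that shed platelets, with and without a floxed Scl gene. The members were all array probes whose annotated mouse gene symbol starts with Nduf (complex I), Sdha to Sdhd (complex II), Uqcr (complex III), Cox4 to Cox8 (complex IV) or Atp5 (complex V, the ATP synthase). The rule took in 132 probes of 89 genes, of 46632 probes on the array. A probe was kept if its signal was above background (detection p under 0.05) on at least 3 of the 6 arrays, which left 106 member probes of 80 genes among 16122 kept probes of 8946 genes. The prefixes also take in assembly factors, proteins that help to build a complex without being part of it, and these are described gene by gene apart from the subunits; counts by complex hold both unless they are given for subunits alone. The rule uses no difference between the genotypes, and members were read from a fit of all kept probes.

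RNA was hybridised to 1 Illumina bead array for each of 6 samples of sorted bone marrow cells from mice of the mixed strain 129SVxC57Bl/6, aged 3 to 4 months. In 3 samples Scl was wild type (+/+) and in the other 3 both Scl alleles were floxed (fl/fl). All 6 carried the TGPF4-CRE transgene, in which the Pf4 promoter, active in the megakaryocyte lineage, drives Cre recombinase. Whether Cre itself acted alike in both groups was not tested. The labels do not say whether a sample was 1 mouse or a pool, so p-values measure only the spread between these samples. Values are the authors' quantile-normalized signals on a log2 scale, on which a difference of 1 is a 2-fold change, and every difference is fl/fl minus +/+.

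As background, complexes I and II pass electrons from NADH and succinate to ubiquinone, complex III passes them on to cytochrome c, and complex IV passes them to oxygen. Complexes I, III and IV pump protons across the inner mitochondrial membrane, and complex V lets the protons flow back to make ATP. Most subunits are encoded in the nucleus and were measured here, while the mitochondrial DNA encodes a few core subunits of complexes I, III, IV and V, which are outside the rule. Megakaryocytes are large polyploid cells that hand mitochondria on to the platelets they release. Scl, whose gene symbol is Tal1, is a basic helix-loop-helix transcription factor of blood cells that binds DNA at E-boxes.

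The series' design describes Scl as completely excised in fl/fl cells. Tal1 was detected on all 6 arrays and had signals of 12.82, 13.27 and 13.29 in +/+ samples and 11.21, 9.85 and 11.45 in fl/fl samples. The groups were apart and Tal1 fell by 2.29 ± 0.37 (SE, n = 3 per group), 4.88-fold, with an adjusted p of 0.0399 in limma's moderated test. That call was lost under 6 of the 9 other settings that were tried with all 6 arrays and in 4 of the 6 fits that left out 1 array, with an adjusted p of 0.0589 with another background correction (neqc). Where the probe sits relative to the floxed sequence was not analysed here. Between 15183 and 16338 probes were detected per array. Rank correlations between arrays ran from 0.931 to 0.984, the highest between +/+ samples 1 and 2, and fl/fl sample 2 stood furthest from those 2. The arrays did not group by genotype throughout. The correlation of +/+ sample 3 was 0.972 with fl/fl sample 1 and 0.967 with fl/fl sample 3. With +/+ samples 1 and 2 it was 0.962 and 0.961. Xist, the RNA that silences an X chromosome in female cells, was at 10.55, 10.90 and 9.25 in +/+ samples and 6.66, 6.95 and 10.55 in fl/fl samples. The arrays thus differed in Xist within the fl/fl group and also between the groups. The mean difference was -2.18 ± 0.92 (SE; adjusted p = 0.307, limma). Xist level and genotype are therefore partly confounded. Of the megakaryocyte markers, 10 of the 11 with a probe were kept. Of these, 7 were lower and 3 higher in fl/fl samples and 0 passed the test. An unadjusted p under 0.05 (limma) held for 6 of the 10, each read from its brightest kept probe. It held for 15.4% of all kept probes and 16.4% of all genes by their brightest kept probe. Their differences ran from -0.50 for Ppbp, a platelet chemokine, to 1.11 for Itga2b, the integrin chain that marks the lineage. Itga2b was at 10.31, 10.38 and 12.36 in +/+ samples and 12.27, 12.28 and 11.82 in fl/fl samples. Its value in +/+ sample 3 thus lay above every fl/fl sample. The groups were apart for Vwf (-0.45) and Treml1 (-0.28). The monocyte and macrophage markers with a probe (Adgre1, Ccr2 and Cd14) were detected on 0 arrays, as were the lymphoid markers Cd3e, Cd3g and Cd79a. Cd79b, the other lymphoid marker with a probe, was detected on all 6 arrays, at 9.75 to 10.05. The 7 kept neutrophil markers were all lower in fl/fl samples by their means (median difference -0.61), and 0 of them passed the test. In RNA from sorted samples, fewer cells of a type and less RNA per cell cannot be told apart.

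Most of the member probes were detected. Of the 106 kept member probes, 98 (92.5%) were detected on all 6 arrays, against 82.2% of all kept probes, both shares being of probes that had passed the filter. Complex I held 53 of them (38 genes), complex II 8, complex III 6, complex IV 18 (13 genes) and complex V 21 (16 genes). The other 26 member probes were detected on 0 arrays. For Ndufs1, Ndufb2, Ndufaf6, Sdha, Uqcrfs1, Cox6a2, Cox7b2, Cox8b and Cox8c these were the only probes, so nothing is reported here on the level of these genes. Sdha is the catalytic subunit of complex II and Uqcrfs1 the iron-sulphur protein of complex III, so both complexes are described without their best-known subunit. Cox6a2, Cox8b, Cox8c and Cox7b2 are isoforms known from muscle or testis.

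No subunit or assembly factor passed the test. At an adjusted p under 0.05 (limma's moderated test, Benjamini-Hochberg over all 16122 kept probes), 0 of the 106 member probes were called, against 99 (0.614%) of all kept probes. The smallest adjusted p among members was 0.185. At an unadjusted p under 0.05 there were 8 member probes (7.55%), 7 higher and 1 lower in fl/fl samples, against 15.4% of all kept probes. The groups did not overlap for 12 member probes (11.3%), against 18.0% of all kept probes. Of these, 9 were higher in fl/fl samples (background 9.38%) and 3 were lower (background 8.62%). In none of these counts was the share of members above that of all kept probes.

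The differences were small as well as uncalled. On the authors' values they ran from -0.36 to 0.42. There, 0 member probes differed by more than 0.5 in either direction, against 775 (4.81%) of all kept probes. The median size of a difference was 0.0942 for members and 0.117 for all kept probes. The 95% interval of the difference lay within ±1, a 2-fold change either way, for 106 of 106 member probes, and within ±0.5 for 91 (85.8%), against 96.4% and 71.5% of all kept probes. A 2-fold change on this scale thus lay outside the interval of every kept member probe, while 98 of the 106 intervals included 0. The median spread between samples of a group was 0.129 (SD) for members and 0.138 for all kept probes. Sizes depended on the background correction. With neqc the brighter Cox6b2 probe differed by 0.61 and Atp5e by 0.49, against 0.42 and 0.31 on the authors' values. Atp5d differed by 0.15 with neqc, against 0.16. The median difference of members was 0.074 with neqc and 0.059 on the authors' values. Intervals with neqc are not given here.

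More members were higher than lower, by an amount that depended most on fl/fl sample 2. The mean was higher in fl/fl samples for 72 member probes (67.9%) and lower for 34, where 51.6% of all kept probes were higher. The median difference was 0.06 for members and 0.0064 for all kept probes. With the arrays scaled to one median in place of quantile normalization, 80.2% of members and 57.2% of all kept probes were higher. Without fl/fl sample 2, 51.9% of members were higher, with a median of 0.0056, against 50.8% of all kept probes. Without +/+ sample 2, 58.5% were higher, with a median of 0.034, against 51.8%. With array weights it was 57.5% against 51.6%. With the Xist level as a covariate, 48.1% of members were higher and the median was -0.0034, against 52.6% of all kept probes. Xist itself was lower on average in fl/fl samples, so that fit cannot fully separate it from genotype. With 1 probe per gene, the brightest, 68.8% of the 80 member genes were higher, against 54.4% of all genes.

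**Figure D1:**
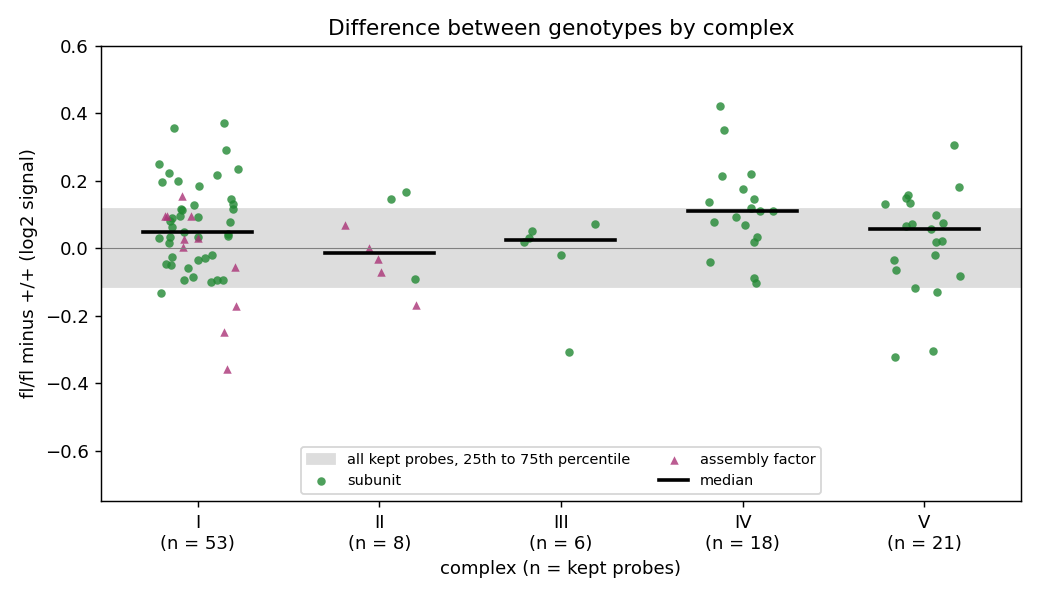
Difference between genotypes (fl/fl minus +/+, log2 signal) for each of the 106 kept member probes, by complex. Circles are subunits, triangles are assembly factors, black bars are medians and the grey band spans the 25th to 75th percentile of all kept probes. All points lie between -0.36 and 0.42, with medians from -0.01 (complex II) to 0.11 (complex IV) over subunits and assembly factors; that of complex II is 0.04 with median scaling and 0.146 over its 3 subunit probes alone.

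Complex I had a median of 0.05 (36 of 53 probes higher in fl/fl samples), complex II -0.01 (4 of 8), complex III 0.03 (4 of 6), complex IV 0.11 (15 of 18) and complex V 0.06 (13 of 21). The median of complex II turned to 0.04 when the arrays were scaled to one median. Assembly factors are 5 of the 8 probes of complex II, and the order of the complexes depends on them. For subunits alone the median was 0.146 in complex II (2 of 3 probes higher), above complex IV, and 0.07 in complex I (29 of 42), while complexes III to V hold no assembly factor. By role, core subunits had a median of 0.10 (12 of 18 probes higher), accessory subunits 0.05 (47 of 68), and assembly factors 0.0021 (9 of 16). In this grouping the 18 core probes are all of complexes I, II and V. The kept subunits of complexes III and IV, such as Uqcrc1, Cox4i1 and Cox5a, were counted as accessory or as tissue-restricted isoforms. The median of the assembly factors was -0.0012 with neqc, so it has no settled sign. Without fl/fl sample 2 the medians by role were 0.034 (11 of 18 higher), 0.013 (35 of 68) and -0.040 (5 of 16). Without that sample the medians of complexes I to V were 0.0030, -0.03, -0.04, 0.04 and 0.02.

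The member probes shared a pattern across arrays within each genotype. For 54 of the 106 members (50.9%) fl/fl sample 2 was the highest of the 6 arrays, against 24.8% of all kept probes. For 40 (37.7%) +/+ sample 2 was the lowest, against 18.0%. The median deviation of a member from its own mean over the arrays was 0.12 in fl/fl sample 2 and -0.09 in +/+ sample 2, and between -0.01 and 0.0027 in the other 4 samples. All kept probes had medians between -0.0070 and 0.01. In complex IV the deviation was 0.19 in fl/fl sample 2, where 17 of 18 probes lay above their own mean, and -0.17 in +/+ sample 2, where 4 of 18 did. Complex I had both ends of the pattern too, at 0.12 and -0.10. In complexes III and V fl/fl sample 2 was the highest (0.10 and 0.11), but +/+ sample 2 (-0.02 and -0.03) was not the lowest: that was fl/fl sample 3 in complex III (-0.09) and +/+ sample 3 in complex V (-0.04). Complex II had neither end, with -0.02 in fl/fl sample 2 and -0.0086 in +/+ sample 2. Over its 3 subunit probes alone these were 0.048 and -0.050. The highest and lowest were then fl/fl sample 3 (0.10) and +/+ sample 3 (-0.07).

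Markers of other blood cells also varied between arrays. The 4 kept mast cell and basophil markers had a median deviation of 0.47 in fl/fl sample 2. They were also at 0.27 in fl/fl sample 3 and -0.25 in +/+ sample 1, where the members were at -0.01 and 0.0027. All 4 had a higher mean in fl/fl samples and 0 passed the test. The groups were apart for Cpa3 (0.68, adjusted p = 0.188, limma). The 7 kept erythroid markers had 0.14 in fl/fl sample 2, but 0.15 in +/+ sample 3, where the members were at -0.01. Within that list Hba-a1, an alpha globin, was highest in fl/fl sample 2 (10.77, against 8.19 to 9.09 elsewhere), while Car2, a carbonic anhydrase, was lowest there (9.40). The summed linear signal of the erythroid markers ran from 4105 to 4294 in +/+ samples and from 3327 to 5045 in fl/fl samples, and that of the mast cell and basophil markers from 493 to 549 and from 509 to 954. Among erythroid markers Alas2 and Slc4a1 were detected on at most 1 array, and among mast cell and basophil markers Mcpt8 and Tpsab1 were detected on 0. The part of these cells in the member values was not tested.

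**Figure D2:**
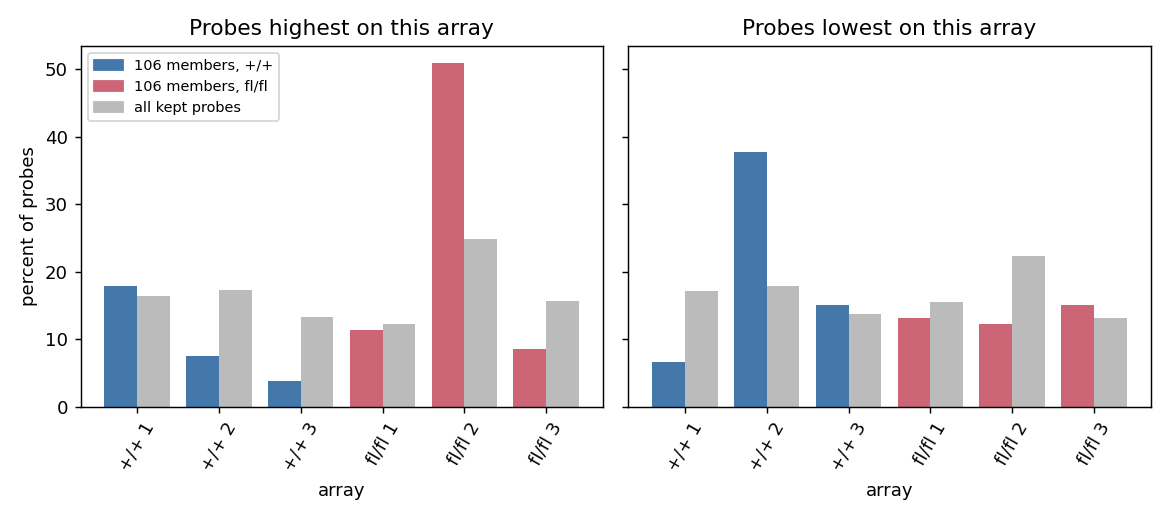
Percent of probes (y axis) whose highest value (left) or lowest value (right) falls on each of the 6 arrays (x axis), for the 106 members (coloured) and all kept probes (grey). The bars of fl/fl sample 2 on the left (50.9%) and +/+ sample 2 on the right (37.7%) stand above those of all kept probes, 24.8% and 18.0%.

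**Figure D3:**
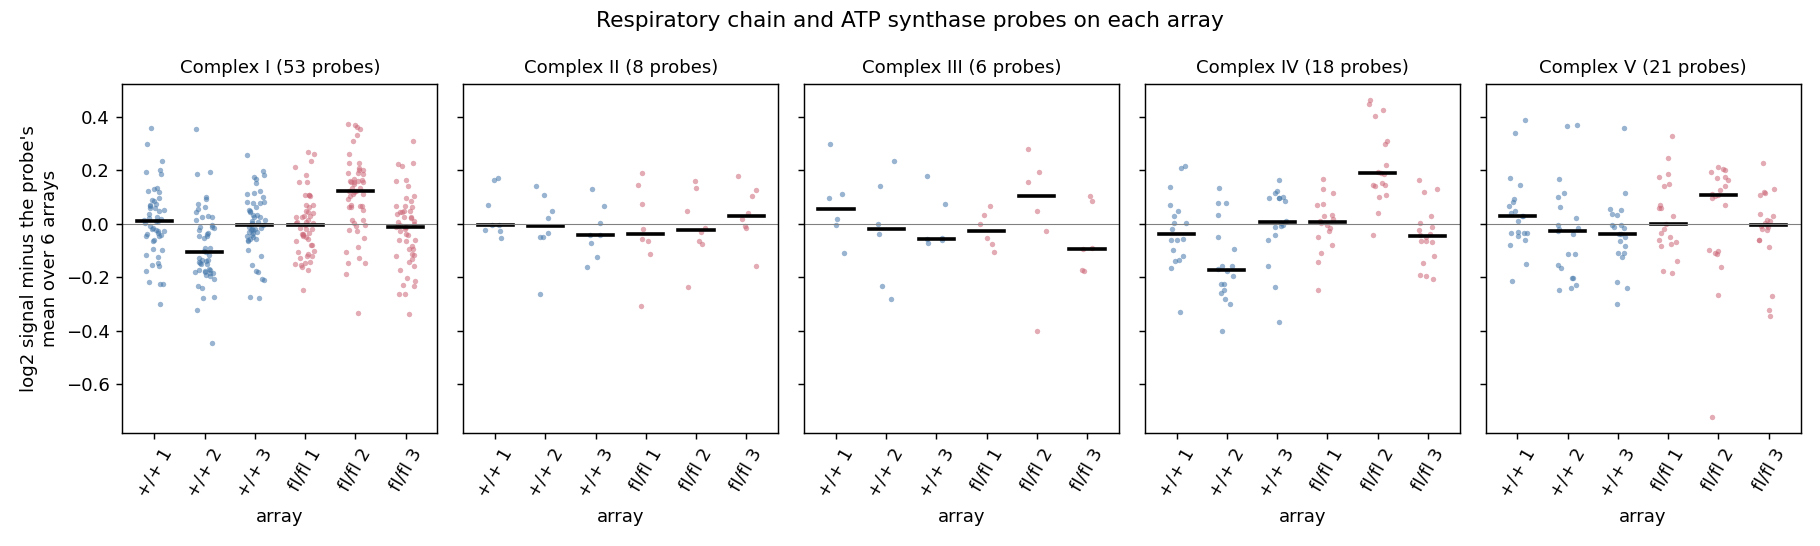
Deviation of each member probe from its own mean over the 6 arrays (log2 signal, y axis), by array (x axis) and complex (panels); blue points are +/+, red points fl/fl and black bars medians. In complexes I and IV the bars of +/+ sample 2 lie lowest (-0.10 and -0.17) and those of fl/fl sample 2 highest (0.12 and 0.19), while the other arrays of both genotypes lie near 0.

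In complex I the Ndufb subunits, accessory proteins of the membrane arm, had 9 of 10 probes higher in fl/fl samples, with a median of 0.14, and 0 were called. The count was also 9 of 10 with neqc and with median scaling, and 8 of 10, with a median of 0.068, without fl/fl sample 2. Ndufb10 had the smallest p of all members. Its signal was 9.74, 9.75 and 9.62 in +/+ samples and 10.12, 9.90 and 10.20 in fl/fl samples. Every fl/fl sample was thus above every +/+ sample, by 0.37 ± 0.11 (SE, n = 3 per group; 1.29-fold), with an adjusted p of 0.185 in limma's test.

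Ndufb9 was at 8.15, 7.77 and 8.18 in +/+ samples and at 8.47, 8.40 and 8.30 in fl/fl samples. The groups did not overlap, and the lowest value was that of +/+ sample 2. The difference was 0.36 ± 0.13 (adjusted p = 0.254, limma). Ndufb5, which falls outside the naming rule and was picked after its values were seen, had 8.53, 8.44 and 8.87 in +/+ samples and 8.97, 8.95 and 8.80 in fl/fl samples. Here +/+ sample 3 lay inside the fl/fl range, and the difference was 0.29 ± 0.13 (adjusted p = 0.323, limma).

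The Ndufa subunits, accessory proteins of both arms, were split, with 9 of 15 probes higher and a median of 0.03, which was -0.02 (6 of 15 higher) without fl/fl sample 2. Ndufa9, which sits where the 2 arms meet and binds NADPH, was at 11.39, 11.48 and 11.59 in +/+ samples and 11.68, 11.78 and 11.75 in fl/fl samples. The groups did not overlap, within a difference of only 0.25 ± 0.09 (1.19-fold; adjusted p = 0.267, limma). Ndufa4, named for complex I but now placed in complex IV, differed by -0.06 ± 0.10, and by 0.03 with median scaling. The Ndufs and Ndufv subunits, which include the core of the peripheral arm that holds the flavin and the iron-sulphur clusters, had 9 of 12 probes higher and a median of 0.09. Of the core subunits, Ndufv1, which binds NADH and the flavin, was at 12.31, 12.45 and 12.34 in +/+ samples and 12.38, 12.30 and 12.34 in fl/fl samples. The groups overlapped throughout, and the 95% interval of the difference ran from -0.23 to 0.18.

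The complex I assembly factors included the lowest difference of all members, and 0 of them were called. Ndufaf4, which acts early in assembly, had 3 kept probes. Its brightest was at 10.56, 10.52 and 10.29 in +/+ samples and 10.16, 10.15 and 10.32 in fl/fl samples. The groups overlapped through +/+ sample 3 and fl/fl sample 3, and the mean was lower by 1.19-fold (difference -0.25 ± 0.11, adjusted p = 0.321, limma). The next probe, at 10.25, 10.25 and 9.72 in +/+ samples and 9.93, 9.56 and 9.67 in fl/fl samples, had the lowest difference of all members, -0.36 ± 0.16 (adjusted p = 0.341). The third, the dimmest, differed by 0.09 ± 0.11, so the probes of this gene do not give 1 direction. The brighter probe of Ndufaf5, of the methyltransferase protein family, differed by -0.17 ± 0.11 with groups apart, and the dimmer by -0.06 ± 0.09. Ndufaf1, Ndufaf2, Ndufaf3 (2 probes), Ndufaf7 and Ndufaf8 differed by 0.0024 to 0.15.

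**Figure D4:**
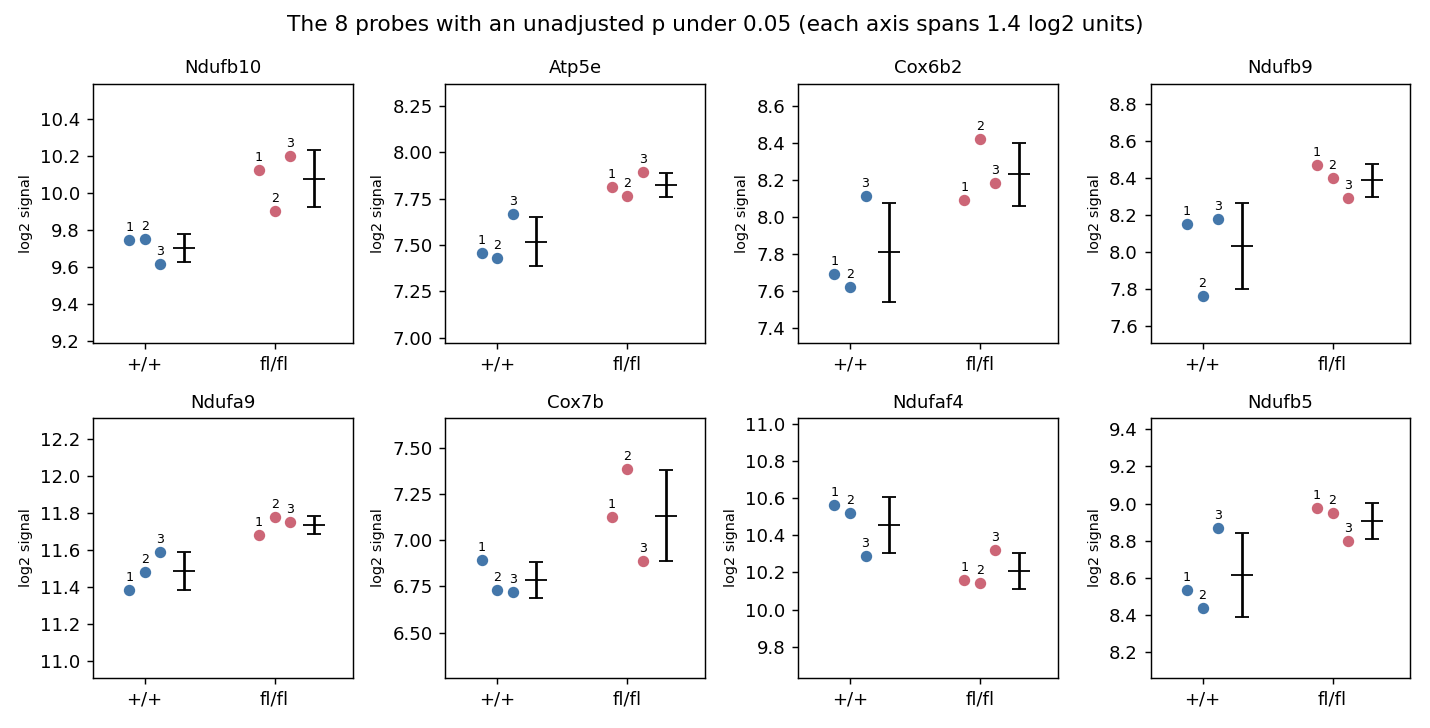
Log2 signal (y axis, spanning 1.4 units in each panel) of the 8 member probes with an unadjusted p under 0.05, in +/+ (blue) and fl/fl (red) samples; digits are sample numbers, and bars are mean ± SD (n = 3). The groups are apart for Ndufb10, Atp5e, Ndufb9 and Ndufa9 and overlap for Cox6b2, Cox7b, Ndufaf4 and Ndufb5.

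Complex II, which also works in the tricarboxylic acid cycle, had 0 calls, with 2 of 3 subunit probes and 2 of 5 assembly factor probes higher in fl/fl samples. Sdhb, its iron-sulphur subunit, was at 10.85, 10.64 and 10.97 in +/+ samples and 10.98, 11.06 and 10.92 in fl/fl samples, a difference of 0.17 ± 0.11 (adjusted p = 0.502, limma). The ranges overlapped at +/+ sample 3. The membrane anchors Sdhc and Sdhd differed by -0.09 ± 0.13 and 0.15 ± 0.10, and that of Sdhc was near 0 (0.00068) with median scaling. Among assembly factors, Sdhaf2, which helps to attach the flavin to Sdha, was at 8.53, 8.65 and 8.54 in +/+ samples and 8.48, 8.51 and 8.53 in fl/fl samples. Its groups were apart, but by a mean of only -0.07 ± 0.09. The brighter probe of Sdhaf1, an iron-sulphur cluster factor, differed by -0.17 ± 0.12 and the dimmer by -0.03 ± 0.09, while Sdhaf3 and Sdhaf4 differed by 0.07 ± 0.10 and 0.0019 ± 0.11.

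Complex III was nearly level, with 5 of its 6 probes between -0.02 and 0.07. Uqcrc1, a core protein, was at 12.48, 12.42 and 12.41 in +/+ samples and 12.46, 12.43 and 12.56 in fl/fl samples, a difference of 0.05 ± 0.09. Uqcr11, Uqcrb and Uqcrh, small subunits, differed by 0.07 ± 0.15, 0.03 ± 0.13 and -0.02 ± 0.12, the last turning to 0.07 with median scaling. Uqcrq, the small ubiquinone-binding subunit, stood apart from these: it was at 9.74, 9.68 and 9.37 in +/+ samples and 9.48, 9.04 and 9.35 in fl/fl samples. The ranges overlapped at +/+ sample 3 and fl/fl sample 1, and the difference was -0.31 ± 0.14 (adjusted p = 0.346, limma). Cyc1, the haem subunit that hands electrons to cytochrome c, lies outside the prefixes and differed by 0.08 (adjusted p = 0.794).

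In complex IV several subunits exist as a general and a tissue-restricted isoform, and 0 probes of either kind were called. Cox4i1, the general form of a regulatory subunit, was at 14.09, 13.97 and 14.26 in +/+ samples and 14.16, 14.24 and 14.13 in fl/fl samples. That is a difference of 0.07 ± 0.10 with overlapping groups. Its hypoxia and lung isoform Cox4i2 was detected on 5 arrays and differed by 0.11 ± 0.10. Cox5a, Cox8a and Cox7a2, general subunits, differed by 0.03 ± 0.10, 0.11 ± 0.12 and 0.21 ± 0.14.

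Cox6b2, known as the testis isoform of Cox6b1, had the largest difference of all members. Its brighter probe was at 7.69, 7.62 and 8.12 in +/+ samples and 8.09, 8.42 and 8.18 in fl/fl samples. The groups overlapped at +/+ sample 3, and the difference was 0.42 ± 0.15 (1.34-fold; adjusted p = 0.253, limma), with 0.09 ± 0.11 for a dimmer probe seen on 4 arrays. The general isoform Cox6b1 differed by -0.04 ± 0.10 and -0.09 ± 0.13 on its 2 probes, the first turning to 0.02 with median scaling. Cox7b, a small structural subunit, was close to background (detected on 5 arrays), at 6.89, 6.73 and 6.72 in +/+ samples and 7.12, 7.38 and 6.89 in fl/fl samples. Its difference of 0.35 ± 0.13 (adjusted p = 0.271) had its highest value in fl/fl sample 2, and the groups overlapped at +/+ sample 1. The muscle isoform Cox7a1, detected on 4 arrays, ran from 6.54 to 6.82 in +/+ samples and from 6.64 to 7.28 in fl/fl samples (difference 0.22 ± 0.16). Cox6a1 gave 0.18 ± 0.17 and 0.14 ± 0.14 on its 2 probes, and the dimmer probe of Cox7c, a small subunit, gave -0.10 ± 0.12. Cox7a2l was not analysed here.

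In complex V 0 probes were called in any part of the enzyme. The small membrane subunits had 7 of 7 probes, of 5 genes, higher in fl/fl samples (median 0.07). The count was the same with neqc and median scaling, and 6 of 7 without fl/fl sample 2. The peripheral stalk, which holds the catalytic head still, had 1 of 5 probes higher (median -0.08), and 2 of 5 with a median of -0.016 under median scaling. These 5 probes are of 3 genes, with 3 probes of Atp5pb, so they are not independent. The difference between these parts was not tested. Atp5e, the epsilon subunit of the central stalk, was at 7.46, 7.43 and 7.67 in +/+ samples and 7.81, 7.77 and 7.90 in fl/fl samples. Every fl/fl sample was above every +/+ sample, by 0.31 ± 0.10 (1.24-fold; adjusted p = 0.227, limma). Atp5d, its partner delta subunit, differed by 0.16 ± 0.11. Atp5c1, the gamma subunit that turns within the head, was at 13.39, 13.37 and 12.70 in +/+ samples and 12.82, 12.73 and 12.99 in fl/fl samples. There +/+ sample 3 was the lowest of all 6, and the difference was -0.30 ± 0.18 (adjusted p = 0.458).

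Of the catalytic head, Atp5b, the beta subunit that makes ATP, was at 14.67, 14.76 and 14.65 in +/+ samples and 14.73, 14.56 and 14.60 in fl/fl samples. The groups overlapped, with a 95% interval of the difference from -0.28 to 0.15. For the alpha subunit Atp5a1 the probes disagreed: the brighter, at 10.65, 10.67 and 10.09 in +/+ samples and 10.64, 9.59 and 10.22 in fl/fl samples, differed by -0.32 ± 0.26, and the dimmer by 0.15 ± 0.11. The brighter probe's spread, 0.53 (SD) within fl/fl samples, came with a low value in fl/fl sample 2. Atp5g1, Atp5g2 and Atp5g3, which encode the same membrane ring subunit, differed by 0.07 ± 0.11, 0.10 ± 0.11 and -0.02 ± 0.09, the last turning to 0.05 with median scaling. The brighter probe of Atp5k, subunit e of the membrane part, differed by 0.18 ± 0.10, and Atp5o of the stalk by -0.13 ± 0.10.

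For 21 member genes several probes were kept. The probes had 1 sign in 12 genes and both signs in 9, with the widest gaps for Atp5a1 (0.47) and Ndufaf4 (0.45). Without fl/fl sample 2 the brighter Atp5a1 probe differed by -0.042 and the dimmer by 0.12. The other 19 genes had gaps of 0.33 or less.

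Calls among members appeared in 2 other settings, in both of which +/+ sample 3 counted less. Without +/+ sample 3, 5 member probes (4.72%) passed, against 1618 (10.04%) of all kept probes. These were Cox6b2 (0.58, adjusted p = 0.0241), Ndufb5 (0.42, adjusted p = 0.0425), Atp5e (0.38, adjusted p = 0.0473), Atp5c1 (-0.53, adjusted p = 0.0241) and the second Ndufaf4 probe (-0.53, adjusted p = 0.0331), all by limma. With array weights, which gave +/+ sample 3 a weight of 0.412, the lowest, 4 member probes (3.77%) passed, against 10.5% of all kept probes: Ndufb10, Atp5e, Cox6b2 and the second Ndufaf4 probe. In both settings the share of members was below that of all kept probes. Atp5e, Cox6b2 and Ndufaf4 were called in both.

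Genes that work beside the chain were read from the same fit, with 1 probe per gene. Of 30 kept assembly factors outside the prefixes, 15 were higher and 15 lower (median 0.00081), and 0 passed. The lowest p-values were those of Lrpprc, which stabilises mitochondrial mRNA (-0.49, adjusted p = 0.271), Cox15, of haem A synthesis (-0.44, adjusted p = 0.281), and Cox16 (0.28, adjusted p = 0.399). Among 11 genes of electron transfer and nucleotide exchange, 5 were higher and 6 lower (median -0.0034), led by the ADP/ATP carrier Slc25a4 (0.26, adjusted p = 0.256), the glycerol phosphate dehydrogenase Gpd2 (-0.29, adjusted p = 0.301) and the outer membrane channel Vdac1 (0.12, adjusted p = 0.548). Neither list had a gene past the threshold, and the sign of the first median turned with neqc and that of the second with median scaling.

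Lists upstream of the chain had more genes lower than higher, again with 0 calls, and their difference from the members was not tested. Of 19 genes of the tricarboxylic acid cycle and pyruvate dehydrogenase, 12 were lower (median -0.10, but -0.026 with median scaling). Dld, a subunit shared by the 2-oxoacid dehydrogenases, was at 10.73, 10.70 and 10.05 in +/+ samples and 9.99, 9.88 and 9.97 in fl/fl samples, lower by 0.54 with groups apart (adjusted p = 0.217, limma). Idh3g, of isocitrate dehydrogenase (-0.35, adjusted p = 0.229), and Dlat, of pyruvate dehydrogenase (-0.29, adjusted p = 0.229), followed. Of 19 regulators of mitochondrial biogenesis, 12 were lower (median -0.09, but -0.025 with median scaling). Polg, the mitochondrial DNA polymerase, was at 7.25, 7.15 and 7.67 in +/+ samples and 8.05, 8.11 and 8.004 in fl/fl samples, a difference of 0.70 (adjusted p = 0.0779), and passed with 1 probe per gene (adjusted p = 0.0457). Ppargc1b, a coactivator of respiratory genes, was at 9.27, 9.26 and 9.17 in +/+ samples and 8.90, 8.54 and 8.54 in fl/fl samples (-0.57, adjusted p = 0.0903). The fission protein Dnm1l differed by -0.36 (adjusted p = 0.267).

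Of 15 glycolytic genes, 11 were lower (median -0.06), though with the arrays scaled to one median the list's median was 0.02. Hk2, a hexokinase, was at 10.59, 10.65 and 10.37 in +/+ samples and 10.13, 9.84 and 9.97 in fl/fl samples (-0.56, adjusted p = 0.0918, limma). The glucose transporter Slc2a3 was at 11.45, 11.43 and 11.35 against 10.91, 10.85 and 11.08 (-0.46, adjusted p = 0.0971). Both were apart between groups, and Pfkl, a phosphofructokinase, differed by -0.24 (adjusted p = 0.281). Over all these lists, 11 of 95 genes (11.6%) passed without +/+ sample 3, among them Polg, Ppargc1b, Hk2, Slc2a3 and Dld. With array weights 13 (13.7%) passed. The shares of all kept probes were 10.04% and 10.5%. These count every probe, while the lists count 1 probe per gene, so the shares are not of like units.

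Promoters of the members were searched for motifs of factors known to drive respiratory genes and of blood cell factors, on both strands. Windows of 300 bases, 250 before to 50 after a gene's start, came from RefSeq (GRCm38.p6) and were found for 74 of the 89 genes (79 windows). The NRF1 core GCATGCGC was in 13.9% of member windows and 2.71% of all 32851 windows, and the GABPA and ETS motif CCGGAAG in 26.6% and 8.86%. The YY1 motif AAGATGGC was in 12.7% and 2.75%. The E-box CAGNTG, the kind that Scl binds, was in 44.3% of member windows and 51.4% of all, and the GATA motif AGATAA in 6.33% and 11.2%. These are matches of letters, which overlap no other motif searched in the 3 promoters below, and they say nothing about binding in these cells. The 250 bases before the start are shown for the 3 members with the smallest p, all on the minus strand, in lower case and 5′ to 3′ along the gene's strand, with motif matches in capitals.
Ndufb10: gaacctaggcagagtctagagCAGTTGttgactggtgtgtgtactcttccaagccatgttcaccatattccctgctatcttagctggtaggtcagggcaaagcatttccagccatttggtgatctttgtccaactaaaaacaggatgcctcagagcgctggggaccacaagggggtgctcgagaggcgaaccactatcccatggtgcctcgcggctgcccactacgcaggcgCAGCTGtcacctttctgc
Atp5e: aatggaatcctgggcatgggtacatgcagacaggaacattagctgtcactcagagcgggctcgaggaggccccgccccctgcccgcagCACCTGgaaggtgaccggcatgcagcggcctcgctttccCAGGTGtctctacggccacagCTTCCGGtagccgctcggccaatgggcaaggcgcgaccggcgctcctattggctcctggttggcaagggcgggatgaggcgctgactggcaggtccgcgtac
Cox6b2: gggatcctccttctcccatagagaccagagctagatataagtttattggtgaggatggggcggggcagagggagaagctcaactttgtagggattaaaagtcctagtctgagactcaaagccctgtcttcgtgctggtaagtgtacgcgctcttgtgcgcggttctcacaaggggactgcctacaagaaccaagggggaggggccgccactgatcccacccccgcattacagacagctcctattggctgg
The windows shown lie at chr17:24724424-24724673 for Ndufb10, chr2:174464102-174464351 for Atp5e and chr7:4753095-4753344 for Cox6b2. The capitals in Ndufb10 are 2 E-boxes, and those in Atp5e are 2 E-boxes followed by 1 match to CCGGAAG on the opposite strand. In Cox6b2 none of the 5 motifs matched. The 3 promoters with the smallest p thus share no motif of the search.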

How the data were processed

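Total RNA from sorted bone marrow cells was hybridised to Illumina bead arrays, 1 per sample, per the labels; groups and sample numbers came from the sample titles. The authors' deposited series table holds log2 values with the same median (6.46) on every array; no value was more than 0.0865 from a quantile normalization of their other deposited table, whose log2 signals had no scaling between arrays. The submitters' processing notes name limma without a version; the build and other steps were not given in the sources used here. Beside each signal a detection score was deposited; its header names a p-value, but the score is 1 for bright probes, so detection p was taken as 1 minus it, and a probe needed a value under 0.05 on at least 3 arrays to be kept. For arrays, the number of samples limits the precision. A shift shared by most genes cannot be seen after quantile normalization.

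In the platform annotation 29976 probes had 1 symbol, 10 had several and 16646 had none and stayed unnamed; the RefSeq table (GRCm38.p6) changed 0 of them. All 16122 kept probes were fitted with lmFit and eBayes of limma 3.58.1 in R 4.3.3, two-sided, with Benjamini-Hochberg adjustment and a threshold of 0.05; every p, adjusted p and SE comes from this model, which was tested on simulated data. Named members were those past the threshold, in each complex up to 3 probes with the smallest p on each side of 0 and the extremes, fixed core subunits, isoform families and assembly factors, and, in each other list, the 3 genes with the smallest p; other lists use the brightest kept probe of a gene. The 95% intervals come from the same fit. Levels of different probes were not compared. Alternatives were neqc (offset 16), scaling to one median, a stricter filter or none, a trended robust prior, array weights, a replicate block, 1 probe per gene, Xist as covariate, other thresholds, and leaving out each array. Chip and batch were not given in the sources used here. Members, lists and tests were chosen with earlier results of these data known.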

Additional observations from a re-analysis of the deposited data

How the results depend on the processing

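With neqc, median scaling, no filter, the stricter filter (detection p under 0.01 on all 6 arrays), the trended prior, the replicate block, the Xist covariate, 1 probe per gene and an adjusted p under 0.1, 0 members passed; array weights called 3 higher and 1 lower, and leaving out 1 array called 0 to 3 higher and 0 to 2 lower, all without +/+ sample 3. The unadjusted threshold gives 7 higher and 1 lower. Members at an unadjusted p under 0.05 numbered 4 (3.77%) with median scaling, 14 (13.2%) with no filter and 5 (5.68%) with the stricter filter. They numbered 15 (14.2%) with weights, 2 (1.89%) with the Xist covariate and 1 to 14 leaving out 1 array. With no filter the share of members was above that of all probes (9.50%). There the members were still the 106 kept probes, while the 46632 probes included those not detected. Over all probes, calls numbered 2 with median scaling, 1694 with weights, 3 with the replicate block, 1 with the Xist covariate and 11 to 1618 leaving out 1 array (27, 11 and 1618 without +/+ samples 1, 2 and 3, and 20, 41 and 41 without fl/fl samples 1, 2 and 3). Unadjusted p under 0.05 held for 7.83%, 9.50%, 28.7% and 7.65% of probes with median scaling, no filter, weights and the Xist covariate, and for 8.03% to 26.3% leaving out 1 array. Deviations of same-numbered samples correlated at r = 0.11, -0.33 and -0.22, and those of differently numbered samples at -0.19 to 0.34. With 3 samples per group this cannot show whether the numbers pair samples. The replicate block called 0 members and left Tal1 at an adjusted p of 0.103.

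Tal1 kept its direction throughout: -2.30 with neqc (adjusted p = 0.0589), -2.19 with median scaling (0.208), -2.29 with no filter (0.0592), the trended prior (0.0546) and the replicate block (0.103), -1.90 with the Xist covariate (0.432), and -2.60 to -1.79 leaving out 1 array, where 4 of 6 fits lost the call. Median differences were 0.039, -0.050 and 0.047 for complex II with median scaling, weights and the Xist covariate, and -0.060 to 0.050 leaving out 1 array. They were 0.11 and -0.10 for complex III with median scaling and the Xist covariate, -0.012 for complex IV with the Xist covariate and -0.00046 for complex V with no filter. In the other lists, weights called 2 assembly factors, 1 gene of electron transfer, 4 of the tricarboxylic acid cycle, 3 regulators and 3 glycolytic genes, and leaving out 1 array called 0 to 3, 0 to 1, 0 to 2, 0 to 3 and 0 to 2, all without +/+ sample 3.

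Small uncalled differences changed sign, and the cause was not tested. With the Xist covariate these were Atp5g1 (-0.0050), Cox4i1 (-0.014), Cox5a (-0.075), Cox6a1 (-0.087 and -0.014), Cox6b2, dimmer probe (-0.0011), Cox7a1 (-0.034), Ndufaf3 (-0.0074 and -0.0059), Ndufaf5, dimmer probe (0.0069), Ndufaf7 (-0.10), Ndufaf8 (-0.14), Sdhaf1, dimmer probe (0.024), Sdhc (0.078), Uqcr11 (-0.088) and Uqcrb (-0.15). With median scaling they were Atp5g3 (0.053), Cox6b1 (0.020), Ndufa4 (0.029), Ndufv1 (0.074), Sdhc (0.00068) and Uqcrh (0.069). With weights they were Cox5a (-0.0073), Ndufaf1 (-0.029), Ndufaf7 (-0.028), Sdhaf4 (-0.062) and Uqcrb (-0.0021), and with neqc Ndufaf7 (-0.0027). Leaving out 1 array, the range was -0.014 to 0.14 for Atp5g1, -0.053 to 0.025 for Atp5g3, -0.027 to 0.10 for Cox5a, -0.011 to 0.32 for Cox6a1, -0.10 to 0.022 for Cox6b1, -0.14 to 0.012 for Ndufa4, -0.073 to 0.097 for Ndufaf1, -0.050 to 0.094 for the dimmer Ndufaf3 probe and -0.10 to 0.0030 for the dimmer Ndufaf5 probe. It was -0.075 to 0.069 for Ndufaf7, -0.063 to 0.22 for Ndufaf8, -0.053 to 0.015 for Ndufv1, -0.0021 to 0.12 for Sdhaf3, -0.064 to 0.088 for Sdhaf4, -0.18 to 0.041 for Sdhc, -0.051 to 0.18 for Uqcr11, -0.076 to 0.13 for Uqcrb and -0.12 to 0.059 for Uqcrh. With 3 samples per group, changes within the intervals given above could not be told from 0.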
